A study of Oryza sativa with 8 samples.

Results

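Transcripts of 10 rice genes that encode enzymes of chlorophyll synthesis were followed in leaves and roots, with and without salt. The genes were taken as a fixed list of identifiers by their place in the pathway, with no measured value in the rule, and all 10 were present in every library among 55797 genes with a single locus. They also passed the filter on low values (at least 1 FPKM in 2 or more libraries), as did 23776 genes in all. Of the 10, CHLM did so through its leaf values alone. The deposited tables hold identifiers without names. The gene names used here come with the list and are standard for rice, and neither the tables nor the reference at hand pairs them with the identifiers.

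The seedlings were 2-week-old Nipponbare rice, a japonica cultivar, grown in liquid culture in a greenhouse. The 8 libraries form 4 groups of 2: root salt (roots after 24 hours of 150 mmol NaCl, given in the labels without a volume), root control (roots of untreated seedlings), leaf salt (leaves of the same salt treatment) and leaf control (leaves of untreated seedlings). The groups follow the sample titles, since the tissue field calls the root libraries shoot and the leaf libraries seedling. Replication was biological per the labels, with no statement on pooling of plants. The files carry no names for marker genes of either tissue, so the tissue labels were not checked against them here.

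Chlorophyll is built in plastids along the tetrapyrrole pathway, which starts from glutamate and also supplies haem. Magnesium chelatase commits protoporphyrin IX to the chlorophyll branch. In flowering plants the reduction of protochlorophyllide needs light, and the free intermediates are phototoxic, so the pathway is tightly regulated in green tissue. Roots kept in the dark make little or no chlorophyll but still need haem.

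In pathway order, HEMA1 (LOC_Os10g35840, chromosome 10, 19159093 to 19162504) encodes glutamyl-tRNA reductase, the first committed enzyme of tetrapyrrole synthesis. Magnesium chelatase has the porphyrin-binding subunit CHLH (LOC_Os03g20700, chromosome 3, 11712169 to 11720131), with CHLD (LOC_Os03g59640, chromosome 3, 33955198 to 33961962) and CHLI (LOC_Os03g36540, chromosome 3, 20247674 to 20250146) as its ATPase-type subunits. CHLM (LOC_Os06g04150, chromosome 6, 1733935 to 1735135) encodes the methyltransferase that acts on magnesium protoporphyrin IX, and CRD1 (LOC_Os01g17170, chromosome 1, 9874326 to 9876951) a subunit of the cyclase that closes the last ring. DVR (LOC_Os03g22780, chromosome 3, 13155800 to 13157404) encodes divinyl reductase. PORA (LOC_Os04g58200, chromosome 4, 34663055 to 34664723) and PORB (LOC_Os10g35370, chromosome 10, 18900290 to 18904022) encode the light-dependent protochlorophyllide oxidoreductases. CAO1 (LOC_Os10g41780, chromosome 10, 22482198 to 22486537) encodes chlorophyllide a oxygenase, which makes the precursor of chlorophyll b. Coordinates are those of the deposited tables, whose genome build is not given in the sources used here. The locus of CAO1 shared 1627 bases with that of LOC_Os10g41770, and the other 9 loci overlapped no other gene.

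Levels are given in FPKM, fragments per kilobase of transcript scaled to the mapped fragments of the library, so that levels of different genes can be set beside each other. Changes are differences of log2(FPKM + 1), which understate the change of low genes. Rises and falls are stated for called genes, those with a Benjamini-Hochberg adjusted p under 0.05 in the limma fit over all 23776 genes. Groups of 2 libraries without overlap are weak evidence by themselves, since the smallest exact permutation p for 2 against 2 libraries is 0.333. The confidence bounds deposited with each value imply between 9060000 and 10700000 fragments per library. For the 10 genes they imply 1.99 to 745 fragments per library in roots and 480 to 6823 in leaves, so the root values are far less precise. These implied numbers are lower estimates of depth if the bounds hold more than counting error. Libraries of 1 group had Spearman correlations of 0.969 to 0.983 over the tested genes.

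In untreated leaves all 10 genes were well expressed, at or above the 90.5th percentile of tested genes, and their means spanned 6.97-fold. CRD1 was the highest, with 374 and 329 FPKM in the leaf control libraries. CHLH followed with 274 and 223 FPKM, then PORB with 223 and 186 and HEMA1 with 188 and 181. The libraries of CHLH overlapped those of PORB, and those of PORB overlapped those of HEMA1, so these neighbours in the order were not separated. CAO1 stood at 120 and 106 FPKM and PORA at 66.6 and 64.3. The lower end was close together: CHLI, DVR, CHLD and CHLM averaged 59.4, 53.1, 51.1 and 50.4 FPKM, and from DVR to CHLM neighbouring genes overlapped.

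**Figure D1:**
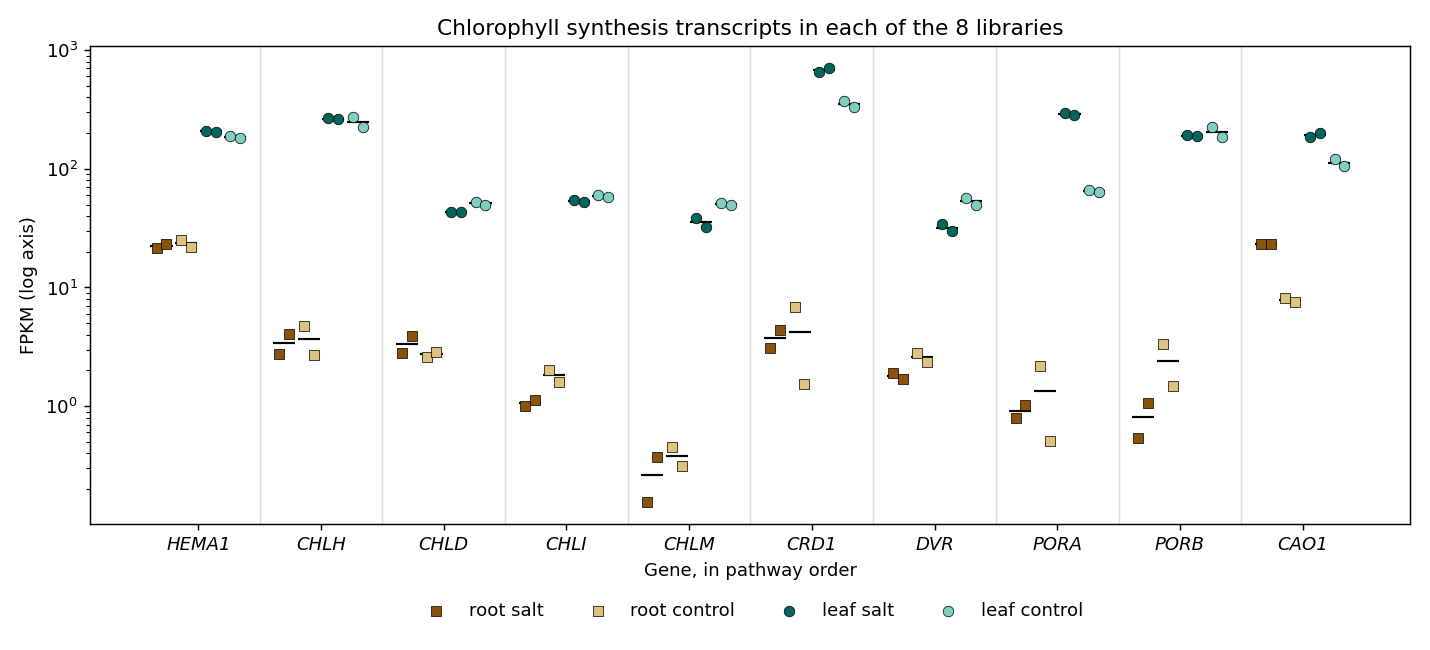
FPKM of the 10 genes (log axis, genes in pathway order) in each library, with root groups as squares, leaf groups as circles and a short line at the mean of each group's 2 libraries. Every leaf value lies above every root value of the same gene, and PORA has the widest gap between leaf salt (mean 289 FPKM) and leaf control (mean 65.4 FPKM).

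In leaves, the called changes with salt went in different directions. PORA and CAO1 rose, CHLM and DVR fell, and the other 6 genes were not called. The background is a broad response, in which 14.8% of all tested genes rose and 18.9% fell in leaves. The 2 of 10 genes called in each direction are near these shares. The median change of the 10 genes was -0.0043 on the log2 scale, with 5 above and 5 below 0, and that of all tested genes was -0.05.

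PORA showed the largest leaf response of the 10. It had 294 and 284 FPKM in leaf salt libraries and 66.6 and 64.3 FPKM in leaf control libraries. The groups were far apart, and the mean was 4.41-fold higher with salt. The change was 2.13 ± 0.304 on the log2 scale (SE, n = 2 per group, limma adjusted p = 0.0024), the 235th highest of 23776 genes. PORB, its partner in the same enzymatic step, had 192 and 187 FPKM with salt and 223 and 186 FPKM without. Its groups overlapped, and its change of -0.11 ± 0.272 (95% interval -0.75 to 0.54) was not called.

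The ratio of the POR transcripts was turned round. PORA stood at 1.53 and 1.52 times PORB in leaf salt libraries and at 0.298 and 0.346 times PORB in leaf control libraries. PORA thus made up 60.5% and 60.3% of the summed POR transcripts with salt, against 23.0% and 25.7% without, and the sum itself was 485 and 471 FPKM against 290 and 250 FPKM. The ratio itself was not tested. In Arabidopsis and barley, PORA is known as the form that dominates in dark-grown seedlings and declines in light, and PORB as the form that persists in green leaves.

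CAO1, at the step toward chlorophyll b, had 186 and 201 FPKM in leaf salt libraries and 120 and 106 FPKM in leaf control libraries. The groups did not overlap. The change was 0.78 ± 0.0936 (SE, n = 2 per group, limma adjusted p = 0.0012), and the mean was 1.72-fold higher. The overlapping gene LOC_Os10g41770 had 5.47 and 6.63 FPKM with salt and 6.85 and 7.55 FPKM without, low beside CAO1 in leaves.

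DVR fell. It had 34.2 and 29.7 FPKM in leaf salt libraries and 57.1 and 49.1 FPKM in leaf control libraries, without overlap, and its mean with salt was 60.1% of that without. The change was -0.72 ± 0.128 (SE, n = 2 per group, limma adjusted p = 0.0059). CHLM fell as well, with 38.3 and 32.5 FPKM with salt and 51.0 and 49.8 FPKM without, a change of -0.50 ± 0.137 (limma adjusted p = 0.029). The fall of CHLM was no longer called when any 1 of the leaf libraries was left out: adjusted p was 0.163 and 0.0527 without leaf salt replicate 2 and replicate 1, and 0.110 and 0.130 without leaf control replicate 2 and replicate 1. With a pseudocount of 0.1 in place of 1 it was 0.255.

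CRD1, which sits between CHLM and DVR in the pathway, was not called but had clearly separated leaf groups. It had 649 and 712 FPKM in leaf salt libraries and 374 and 329 FPKM in leaf control libraries, a 1.94-fold higher mean with salt. The change was 0.95 ± 0.466 on the log2 scale (95% interval -0.16 to 2.06, limma adjusted p = 0.166). Its root control libraries, at 6.85 and 1.54 FPKM, lay far apart on the same scale, and all 4 groups share 1 estimate of the spread. With leaf libraries alone in the fit the SE was 0.114 and the limma adjusted p 0.0165. Without root control replicate 1 or replicate 2 the SE was 0.151 in each case. The spread between those 2 libraries then no longer entered the shared estimate. With a pseudocount of 5 and all 8 libraries the limma adjusted p was 0.0291.

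The first steps had smaller leaf differences. HEMA1 had 208 and 204 FPKM with salt and 188 and 181 FPKM without, and its groups did not overlap, but the change of 0.16 ± 0.0929 was not called (95% interval -0.06 to 0.38, limma adjusted p = 0.231). CHLH had 268 and 261 FPKM with salt and 274 and 223 FPKM without, with overlapping groups. CHLD, at 43.5 and 43.5 FPKM with salt and 52.5 and 49.6 without, and CHLI, at 54.1 and 52.2 with salt and 60.4 and 58.3 without, lay below the controls in every library. Their changes of -0.23 and -0.16 were not called (95% intervals -0.54 to 0.09 and -0.41 to 0.09). The chelatase subunits kept their order in all 4 leaf libraries, with CHLH at 4.95 and 4.99 times CHLI in leaf salt and 4.54 and 3.82 times CHLI in leaf control.

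**Figure D2:**
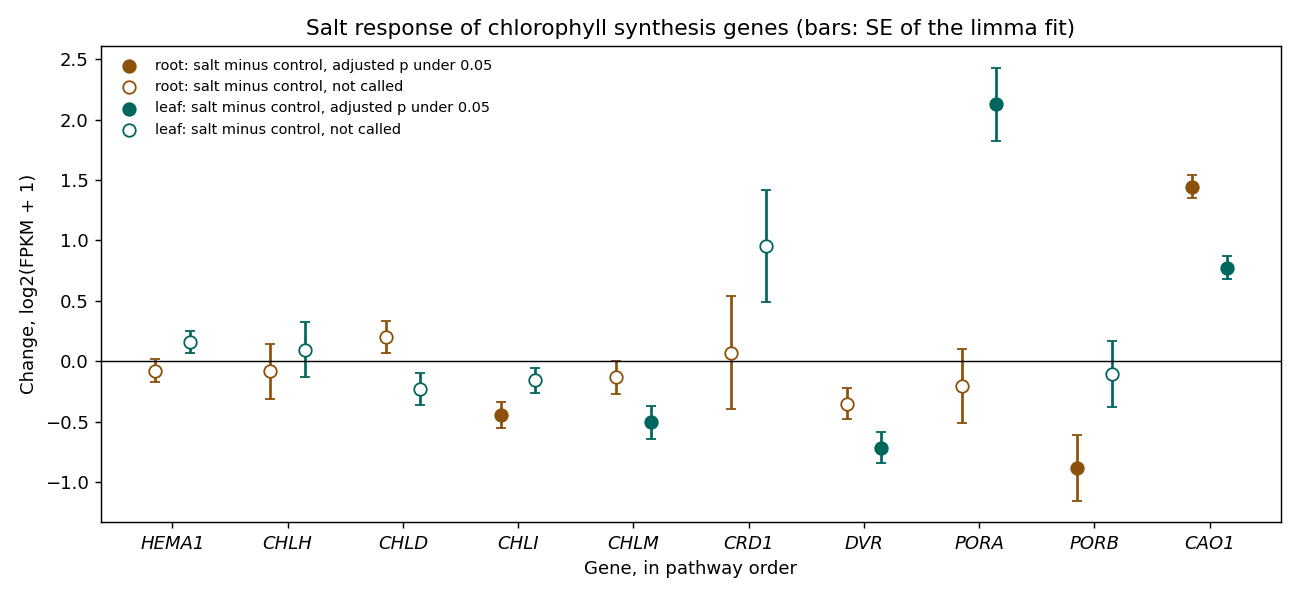
Change with salt on the log2(FPKM + 1) scale (y axis) for each gene (x axis), in roots to the left and in leaves to the right of each position. Bars are the SE of the limma fit and filled points are called at an adjusted p under 0.05. PORA in leaves (2.13) and CAO1 in roots (1.45) stand highest, and PORB in roots (-0.88) stands lowest.

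The order of leaf levels differed with salt. PORA, the sixth of the 10 in leaf control, was second in leaf salt, above CHLH and without overlap between their libraries. DVR was the lowest in leaf salt, at 31.9 ± 3.16 FPKM (SD, n = 2), and the span from the highest to the lowest mean was 21.3-fold against 6.97-fold in leaf control. CRD1 alone held 33.0% and 35.5% of the summed FPKM of the 10 genes with salt, against 25.5% and 25.4% without. The 10 genes together held 0.285% and 0.288% of all FPKM in leaf salt libraries and 0.211% and 0.182% in leaf control libraries.

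**Figure D3:**
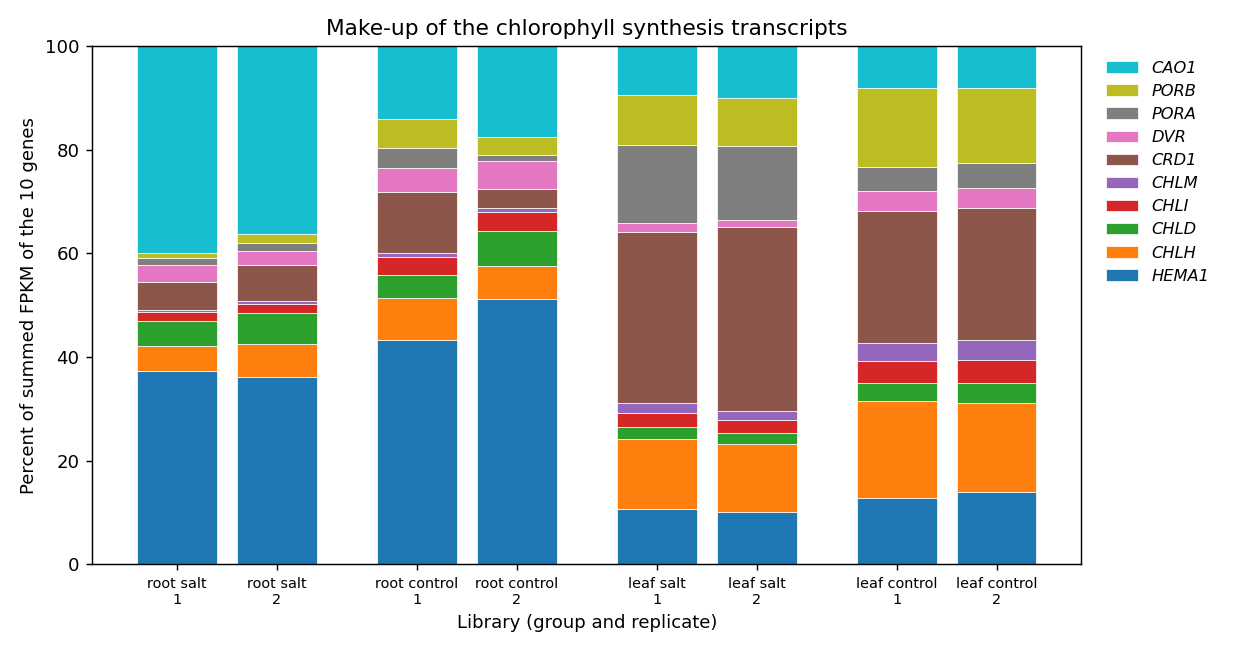
Share of each gene in the summed FPKM of the 10 genes (y axis, percent), one bar per library. PORA holds 14.9% and 14.2% in leaf salt and 4.54% and 4.96% in leaf control, while CAO1 holds 40.0% and 36.3% in root salt and at most 17.6% in root control.

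Roots held far less of all 10 transcripts than leaves. In untreated roots every gene was lower than in untreated leaves, with differences from -2.91 (HEMA1) to -6.30 (CRD1) on the log2 scale and limma adjusted p between 2.91e-07 and 2.56e-05. Under salt every gene was again lower in roots than in leaves, with differences from -3.01 (CAO1) to -7.25 (PORA). The background was 28.3% of tested genes lower and 39.1% higher in untreated roots, and 24.5% lower and 47.7% higher in roots under salt. Root libraries lay below leaf libraries without overlap for 10 of 10 genes in each condition, as did 35% of all tested genes without salt and 29.9% under salt. CHLM was under 1 FPKM in every root library and passed the filter through its leaf values alone, so its lower root level adds no support. In whole-organ RNA, fewer cells that make a transcript and less transcript per cell cannot be told apart.

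HEMA1, whose product also feeds haem synthesis, was the least reduced in untreated roots, with 25.3 and 21.9 FPKM in root control libraries and 188 and 181 FPKM in leaf control libraries. This left 12.8% of the leaf mean and put HEMA1 above the other 9 genes in untreated roots without overlap. CAO1, DVR and CHLD kept 6.98%, 4.84% and 5.36% of the leaf mean, CHLI 3.06% and PORA 2.05%. CHLH, CRD1, PORB and CHLM were at 1.49%, 1.19%, 1.18% and 0.756%. CHLM, at 0.448 and 0.314 FPKM in root control, had a deposited lower bound of 0 in replicate 2. The proportions of the chelatase subunits differed between the organs. CHLH stood at 1.80 and 0.949 times CHLD in root control, against 5.22 and 4.50 times CHLD in leaf control, so these subunits were closer to each other in roots. CHLI stood at 0.774 and 0.563 times CHLD in root control, against 1.15 and 1.18 times CHLD in leaf control, and at 0.359 and 0.292 times CHLD in root salt, against at most 1.24 times CHLD in leaf salt. CHLI and CHLD were thus farther apart in roots.

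Leaf-abundant transcripts were not at the same level in the root libraries. Over 185 other genes whose leaf control mean was 100 FPKM or more and whose root mean was under 2% of it, the median was 0.264% and 0.368% of leaf control in root salt replicates 1 and 2, and 1.18% and 0.357% in root control replicates 1 and 2. Root control replicate 1 was also the highest of the 4 root libraries for 8 of the 10 genes. The share of all tested genes that were highest in that library was not counted, so the 8 of 10 cannot be weighed. In root control replicate 1 CHLM, at 0.888%, lay under the median of the 185 genes, and in the other root libraries all 10 genes lay above it. The 75th percentile of the list was not passed by CHLM, CRD1, PORA and PORB in root control replicate 2. Nor was it passed by CHLM and PORB in root salt replicate 1, PORB in root salt replicate 2 or CHLM in root control replicate 1. PORB in root salt replicate 1, at 0.265%, was level with the median. The list was cut at 2% of leaf, so genes above that level, such as HEMA1 and CAO1, lie above it by its construction. The part of this difference between libraries in the root results was not tested.

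**Figure D4:**
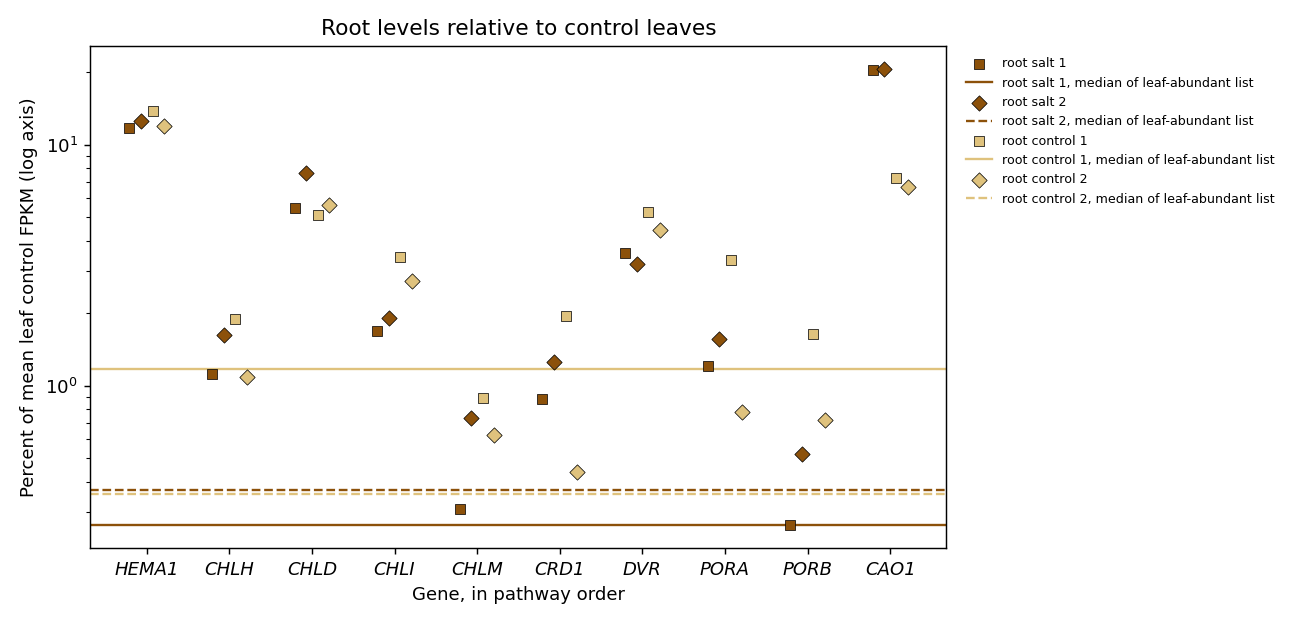
Level of each gene in each root library as a percent of its mean in leaf control (log axis). Lines give the median over 185 other leaf-abundant genes in the same library. It is 1.18% in root control replicate 1 and 0.264% to 0.368% in the other 3 libraries. PORB and CHLM lie nearest to the lines, except in root control replicate 2, where CRD1 (0.438%) lies nearest. Genes over 2% of leaf lie above the lines by the way the list was cut.

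In roots with salt CAO1 rose, CHLI and PORB fell, and 7 genes were not called. In all, 29.1% of tested genes (6918) rose and 14.4% (3412) fell in roots. With 75th percentile scaling 4850 rose and 4709 fell, and with quantile normalization 4736 rose and 5199 fell. The median change of the 10 genes was -0.11, and that of all tested genes was 0.127. When libraries are scaled to a common 75th percentile, these medians become -0.24 and -0.0054 in the same order. Relative to the median of all genes, the change of CAO1 was 1.32, that of CHLI -0.57 and that of PORB -1.01.

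CAO1 had 23.0 and 23.2 FPKM in root salt libraries and 8.19 and 7.53 FPKM in root control libraries. The groups were clearly apart, with a 2.94-fold higher mean and a change of 1.45 ± 0.0936 (SE, n = 2 per group, limma adjusted p = 1.3e-04). With salt CAO1 reached the level of HEMA1, at 21.5 and 23.1 FPKM, with overlapping libraries, and stood well above the other 8 genes. The overlapping gene LOC_Os10g41770 had 14.6 and 14.7 FPKM with salt and 11.9 and 9.71 FPKM without, so it was not low beside CAO1 in roots. How reads in the shared stretch were assigned is not given in the sources used here.

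PORB had 0.541 and 1.07 FPKM in root salt libraries and 3.37 and 1.47 FPKM in root control libraries, a change of -0.88 ± 0.272 (SE, n = 2 per group, limma adjusted p = 0.037). CHLI had 0.999 and 1.13 FPKM with salt and 2.02 and 1.61 FPKM without, a change of -0.44 ± 0.105 (limma adjusted p = 0.014). The libraries of each gene did not overlap between groups, but the levels were low and the calls fragile. Without root control replicate 1, the library with more leaf-abundant transcripts, the changes were -0.47 and -0.34 and the adjusted p 0.124 and 0.0619. Without root salt replicate 1 the adjusted p was 0.186 for PORB and 0.0615 for CHLI, and without root salt replicate 2 it was 0.0527 for PORB. The 185 leaf-abundant genes had a median change of -0.62 in the same comparison, with 46 lower and 0 higher (limma). Of all tested genes 14.4% were lower and 29.1% higher. The median level of the 185 genes was 1.18% of leaf control in root control replicate 1. In root control replicate 2 it was 0.357%, between the 0.264% and 0.368% of the root salt libraries.

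PORB also lost its call when any leaf library was left out, with adjusted p of 0.0666 and 0.0665 without leaf salt replicates 1 and 2 and 0.0596 and 0.0595 without leaf control replicates 1 and 2. With the root libraries alone in the fit the adjusted p was 0.149 for PORB and 0.0718 for CHLI. With a pseudocount of 5 it was 0.0916 and 0.0854 in the same order, and without a filter on low values it was 0.0868 for PORB. The changes were larger with a pseudocount of 0.1, -1.43 for PORB and -0.71 for CHLI, and stayed called (adjusted p = 0.0331 and 0.0076), as they did under 75th percentile scaling (0.0274 and 0.0074) and quantile normalization (0.0211 and 0.0035).

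The remaining root differences were not called, and most lay within the spread of the libraries. DVR had 1.89 and 1.70 FPKM with salt and 2.80 and 2.34 FPKM without, so its groups did not overlap. Its change of -0.35 ± 0.128 (95% interval -0.66 to -0.05) was not called (limma adjusted p = 0.064). Under 75th percentile scaling and quantile normalization its adjusted p was 0.0266 and 0.0178, and with a pseudocount of 0.1 it was 0.0366. PORA had 0.789 and 1.02 FPKM with salt and 2.17 and 0.512 FPKM without, with overlapping groups. Its change of -0.20 (95% interval -0.93 to 0.52) depended on the control library: it was 0.33 without root control replicate 1 and -0.73 without root control replicate 2. CRD1, at 3.09 and 4.39 FPKM with salt and 6.85 and 1.54 FPKM without, likewise gave 0.89 and -0.74 without each of these libraries. A single root control library shows no spread of its own group, so no test is given for these values. HEMA1 had 21.5 and 23.1 FPKM with salt and 25.3 and 21.9 FPKM without, a change of -0.08 with a 95% interval of -0.30 to 0.14.

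CHLH, CHLD and CHLM gave no clear root difference. CHLH had 2.77 and 4.02 FPKM with salt and 4.71 and 2.72 FPKM without. CHLD had 2.78 and 3.88 FPKM with salt and 2.61 and 2.86 FPKM without. Its change of 0.20 was 0.38 without root salt replicate 1, which leaves 1 root salt library. CHLM, at 0.155 and 0.372 FPKM with salt and 0.448 and 0.314 FPKM without, rested on about 1.99 to 6 implied fragments per library, too few for a difference to be detectable at this depth.

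The salt response differed between roots and leaves for 2 of the 10 genes by an interaction term for tissue and treatment. Of all tested genes, 23.1% (5496) were called with a more positive change in roots and 9.71% (2309) with a more positive change in leaves. These counts depended on scaling. They were 3977 and 3320 with 75th percentile scaling, and 3663 and 3812 with quantile normalization, in the same order. PORA had changes of -0.20 in roots and 2.13 in leaves, a difference of -2.33 ± 0.430 (SE, limma adjusted p = 0.0081) and the 145th lowest of 23776. With a pseudocount of 0.1 the adjusted p of PORA was 0.061. CAO1 rose in both tissues and more so in roots on the log2 scale, 1.45 against 0.78, a difference of 0.67 ± 0.132 (limma adjusted p = 0.0102). With a pseudocount of 5 it was 0.37 with an adjusted p of 0.0505. In FPKM the gain of CAO1 was the smaller in roots, where its mean was 23.1 with salt and 7.86 without, against 193 and 113 in leaves.

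The falls of CHLM and DVR in leaves and of CHLI and PORB in roots were not shown to be particular to a tissue. The differences between root and leaf change were 0.37 for CHLM, 0.36 for DVR, -0.29 for CHLI and -0.77 for PORB, with limma adjusted p between 0.169 and 0.188. With a pseudocount of 5 the differences of CHLM and DVR were called, at 0.43 and 0.50 (adjusted p = 0.0326 and 0.0310). Under 75th percentile scaling that of HEMA1 was called at -0.44 (limma adjusted p = 0.0476). Without root control replicate 2 those of PORB and CRD1 were -1.19 and -1.69, and without root salt replicate 1 that of CHLD was 0.61. These runs leave 1 library in a group, so no test is given for them. CAO1 rose in both tissues, as did 7.97% of all tested genes. HEMA1, CHLH, CHLD and CRD1 were called in neither tissue, which makes 4 of 10, near the 41.5% of all tested genes called in neither. The root and leaf changes use separate libraries but 1 shared estimate of the spread per gene.

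The genes also differed among themselves in their pattern over tissue and treatment. Each gene was described by its mean log2(FPKM + 1) in leaf salt, root control and root salt, each minus leaf control, and likeness was the root mean square difference over these 3 values. The closest pair was CHLD and DVR, at 0.485, and the farthest was PORB and CAO1, at 3.01. CHLI lay nearest to the mean pattern of the 10 genes, at 0.286, and CAO1 farthest from it, at 1.59. Among 14058 other genes averaging 5 FPKM or more in untreated leaves, LOC_Os01g52170 and LOC_Os11g13850 were closest to that mean pattern, at 0.0892 and 0.0945. Set among these other genes by the same distance, the 10 genes ranked only from 36th (CHLI) to 1080th (CAO1). The mean pattern had a leaf change of 0.24 with salt, while the median leaf change of the 10 genes was -0.0043. LOC_Os01g52170 averaged 0.863 FPKM in root salt, 0.790 in root control, 54.2 in leaf salt and 43.6 in leaf control. LOC_Os11g13850 averaged 2.02 FPKM in root salt, 1.96 in root control, 80.2 in leaf salt and 75.1 in leaf control.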

How the data were processed

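Each of the 8 libraries has a deposited table of FPKM per gene with confidence bounds below and above, in the gene tracking format of Cufflinks per the file headers. TopHat2 2.0.13, Cufflinks 2.2.1 and Cuffdiff are named in the submitters' processing notes; the sources used here do not give the genome build, annotation or strandedness. The 4 identifiers with several loci (9 entries per library) were left out, and 1 was added to each start. Values were taken as log2(FPKM + 1) without further scaling, and limma 3.58.1 in R 4.3.3 was fitted across all 23776 tested genes with 4 group means and a variance trend, with Benjamini-Hochberg adjustment. It was tested on simulated data. FPKM are shares of a library, so a few abundant genes can shift all others, and reads shared between near-identical copies stay uncertain. Implied fragments are the square of 2 × FPKM over the distance to the upper bound. The reference held 1 of 55797 identifiers (prefix dropped) and none of the 10, so other pathway genes and tissue markers could not be listed, and no sequence was used. All 10 genes are named in every comparison, with the 2 nearest in pattern. The rule for the 10 genes uses no measured value, but they and the lists were proposed with earlier results of these data known. Alternatives were pseudocounts of 0.1 and 5, no filter, 75th percentile scaling, quantile normalization, only the groups compared, a replicate block, and each library left out.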

Additional observations from a re-analysis of the deposited data

Results flagged for a closer look

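The salt response of PORA was not the same in root and leaf by the limma interaction term (adjusted p = 0.0081), with a difference of -2.33 (root minus leaf, log2 scale). Its 4 root libraries lay between 0.512 and 2.17 FPKM, while PORA had 294 and 284 FPKM in leaf salt libraries and 66.6 and 64.3 FPKM in leaf control libraries. The response of CAO1 differed by 0.67 in the same test (limma adjusted p = 0.0102), with a rise in root and in leaf.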

How the results depend on the processing

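The calls of all 10 genes between root and leaf, in controls and under salt, held under every alternative run, as did PORA, CAO1 and DVR in leaves and CAO1 in roots. Of 740 gene values under alternatives, 688 kept direction and call, 21 lost the call, 17 gained it and 14 changed direction. This pool includes 150 values for each comparison of root with leaf, all of which kept both. The pool also includes runs in which the log2 change, and so its direction, could not move by construction. These were no filter, the replicate block, only the groups compared, and leaving out a library outside the comparison. In these runs only the call could change. For salt in leaves 139 of 150 kept both, and for the difference between tissues 130 of 140. For salt in roots 119 of 150 kept both, 14 lost the call, 7 gained it and 10 changed direction.

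Genes lower with salt in leaves numbered 2, and 1 with a pseudocount of 0.1 and 1 to 2 with a library left out. Genes lower with salt in roots numbered 2, against 0 with a pseudocount of 5, 1 without a filter, 0 with only root libraries, 3 with a pseudocount of 0.1, 75th percentile scaling or quantile normalization (DVR joining CHLI and PORB), and 0 to 4 with a library left out; those higher numbered 1 to 2. For the difference between tissues, genes more positive in leaves numbered 1, against 0 with a pseudocount of 0.1, 2 with 75th percentile scaling and 1 to 3 with a library left out; those more positive in roots numbered 2 with a pseudocount of 5 and 1 to 2 with a library left out. The causes were not tested beyond the construction of each alternative.

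Changes of direction concerned genes that were not called with all 8 libraries. In roots CRD1 (0.073) was -0.014 with a pseudocount of 5, -0.073 with 75th percentile scaling and -0.15 with quantile normalization, and CHLD was -0.030 with quantile normalization. With a library left out, root changes ranged from -0.74 to 0.89 for CRD1, -0.73 to 0.33 for PORA, -0.39 to 0.23 for CHLH and -0.18 to 0.022 for HEMA1. The root value of CRD1 was -0.74 without root control replicate 2 and -0.13 without root salt replicate 2, and that of CHLH was 0.23 and 0.13 without root control replicate 1 and root salt replicate 1. Leaf changes ranged from -0.052 to 0.24 for CHLH and -0.24 to 0.027 for PORB, and the tissue difference of CHLH from -0.49 to 0.13 (0.029 without root salt replicate 1). A lone library in a group was assumed to vary like the other groups.

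The main fit used no pairing of replicates. Deviations of equally numbered libraries correlated at 0.21 between root control and root salt, and between -0.02 and 0.07 for the other pairs of groups. What the root replicates share was not tested. With the replicate block, 3 genes were lower in roots in place of 2 (DVR, adjusted p = 0.028), and no other call of the 10 genes moved.

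Root levels of CHLM, PORA and PORB rest on few fragments, which limits what can be seen of them.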
